A study of Arabidopsis thaliana with 6 samples.

Results

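The genes described here encode proteins of the cytosolic ribosome of Arabidopsis thaliana, the plant's main protein-making particle. A list of 60 such genes was given as locus identifiers, all on chromosomes 1 and 2. Of these, 20 encode proteins of the small (40S) subunit and 40 encode proteins of the large (60S) subunit. A member was measured here only if the array annotation assigned it a probe set of its own, a probe set being the group of short oligonucleotides that together report 1 transcript. This held for 29 of the 60 members, 7 for the small and 22 for the large subunit, out of 13356 genes with such a probe set. Another 13 members shared a probe set with other genes, so their signals cannot be told apart, and 18 were not listed in the annotation. Each of the 29 had 1 probe set. The protein encoded by each locus follows the standard Arabidopsis ribosomal protein nomenclature, not the array annotation.

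The arrays compared whole 7-day-old seedlings of wild type Col-0 with cdkf;1-2, a T-DNA insertion mutant in the same ecotype, with 3 samples of each genotype labelled as biological replicates. The age is counted from germination in some label fields and from sowing in others. Both genotypes were raised on plates containing 0.5% sucrose at 22 °C in short days (8 h light, 16 h dark) and harvested 4 h into the light. CDKF;1 belongs to the plant cyclin-dependent kinases and can switch on other members of that family, and the study's title gives Ser-7 of the RNA polymerase II tail as its substrate. The mutant is represented by 1 insertion allele. The genotype labels have no check from the CDKF;1 transcript, which was not analysed here.

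A ribosome joins a 40S subunit, which decodes the messenger RNA, to a 60S subunit, which forms the peptide bonds. In plants each ribosomal protein is encoded by a small family of near-identical gene copies, called paralogues, and the transcripts are among the most abundant in growing tissue. Copies of a protein can stand in for each other, and mutants in single copies often have narrow, pointed first leaves. The proteins are assembled onto ribosomal RNA in the nucleolus by a separate set of biogenesis factors, and supply of proteins and of ribosomal RNA is coordinated with growth in part through the TOR kinase.

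Wild type arrays correlated with each other at r = 0.982 to 0.987, and cdkf;1-2 replicate 1 stood apart from the other mutant arrays (r = 0.973 and 0.972, against 0.987 between replicates 2 and 3), across probe sets, which are not independent. The deposited signals had no common scale, with array medians from 64.4 to 115. They were therefore quantile-normalized, which gives every array the same distribution of signals, and compared as log2(signal + 16). Signals of genes are given on the normalized linear scale. Differences are cdkf;1-2 minus wild type on that scale, with the standard error (SE) of the limma fit, and a gene was said to rise or fall when its limma p-value was under 0.05 after Benjamini-Hochberg adjustment across the 22746 probe sets that are no controls. In whole seedlings, fewer cells of a type and less RNA per cell cannot be told apart.

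Most ribosomal protein genes had somewhat higher signals in cdkf;1-2 seedlings, while 1 gene passed the test. The difference was above 0 for 27 of the 29 measured genes (93.1%), against 49% of all probe sets, and its median was 0.28 (1.21-fold), against -0.01 for all probe sets. Only AT1G80750 rose, 1 of 29 (3.45%), against 6.94% of all probe sets called higher, so the share of calls was not above the background. None fell, against 7.42% of all probe sets called lower by limma. At an unadjusted p under 0.05, 6 were higher and 0 lower, where 14% and 15.6% of all probe sets were. The 3 mutant signals all lay above the 3 wild type signals for 8 of the 29 genes (27.6%), against 15.8% of all probe sets. These background shares include dim probe sets and were not matched for brightness, while the members' median signal lay at percentile 98.2.

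The size of this shift depended on how the arrays were scaled. The median of the 29 genes was 0.39 on the deposited signals, 0.36 after scaling to a trimmed mean, 0.50 after centring on array medians and 0.71 after scaling on the hybridisation spikes, transcripts of known amount added at hybridisation. Under these 4 scalings all 29 genes had differences above 0. The median of all probe sets moved to 0.17 under spike scaling. Taken as the distance from the all-probe-set median of the same scaling, the members' median was 0.28 after quantile normalization and 0.41 to 0.54 under the other scalings. Of the 29 genes, 24 lay above the 90th percentile of signal.

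Limma called 0 members higher on the deposited signals, where 0.659% of all probe sets were, and 0 under spike scaling (against 7.63%). It called 1 higher after median centring (3.45%, against 7.82% of all probe sets) and 2 after trimmed mean scaling (6.90%, against 5.75%). With a trended and robust prior 3 were called higher (10.3%, against 7.41%). With a pseudocount of 1 or 64 in place of 16 there were 0 and 2 (0% and 6.90%, against 4.73% and 7.58%). With the replicate number as a block there were 2 (6.90%, against 7.35%). Without the 40% or the 60% dimmest probe sets there were 4 of 28 each (14.3%, against 12.5% and 13.1%). Array weights, which count noisier arrays for less, gave 11 of 29 (37.9%, against 11.8%). No member was called lower in any of these fits or with a sample left out, where 0.783% to 14.8% of all probe sets were. Shares above the background were thus seen in some settings and not in others.

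**Figure D1:**
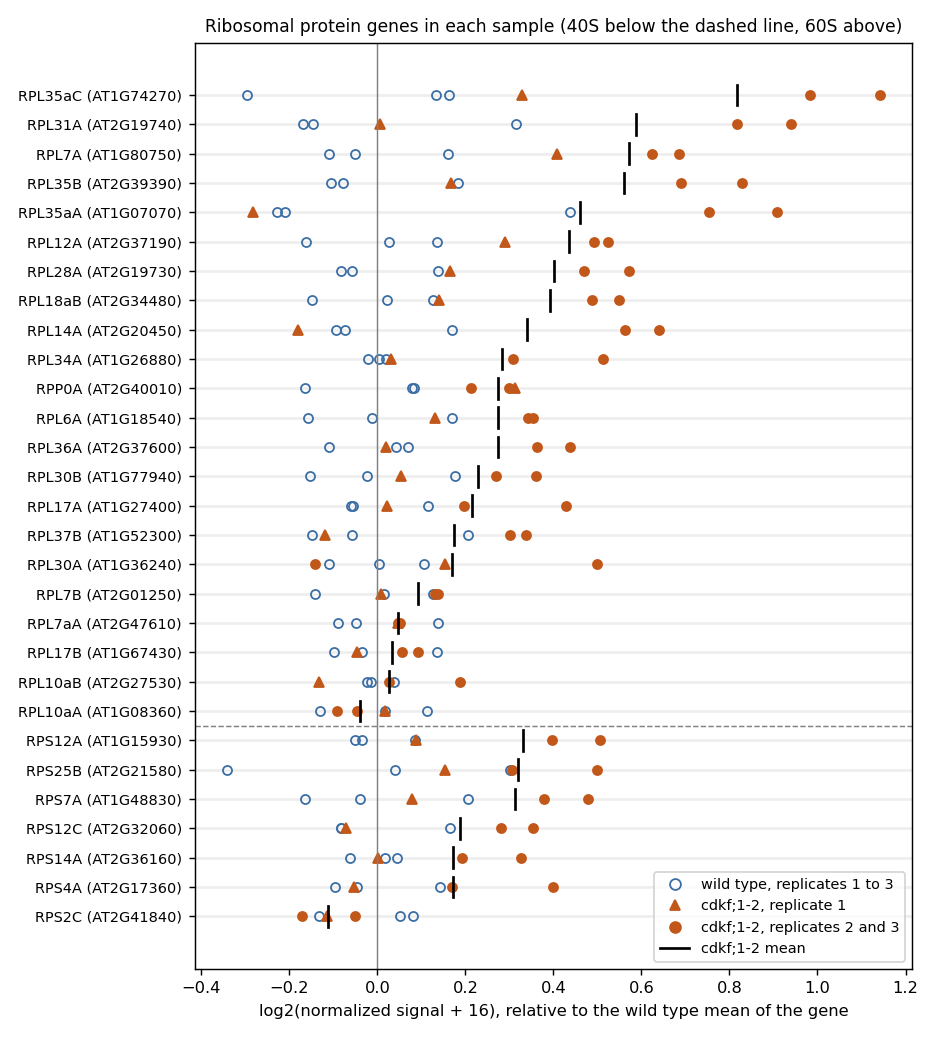
Each row is 1 of the 29 measured ribosomal protein genes, with the 40S genes below the dashed line, and the x axis is log2(normalized signal + 16) minus the wild type mean of that gene. Open circles are the 3 wild type samples, the triangle is cdkf;1-2 replicate 1, filled circles are cdkf;1-2 replicates 2 and 3, and the black bar is the mean of the mutant samples, which lies above 0 in 27 rows.

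Large-subunit genes held the widest differences. AT1G80750 encodes a copy of L7 (RPL7A) that diverges in sequence from the other L7 copies. Wild type replicates 1 to 3 had signals of 686, 659 and 798, and the mutant replicates 949, 1105 and 1154. The groups did not overlap, and the rise was 1.49-fold (limma adjusted p = 0.033, log2 0.57, SE 0.14). The call was lost without wild type replicate 1 or 2 (adjusted p = 0.101 and 0.12) and without mutant replicate 2 or 3 (adjusted p = 0.104 and 0.105), where the difference stayed between 0.50 and 0.55. It was also lost on the deposited signals (log2 0.65, adjusted p = 0.463), under spike scaling (0.97, adjusted p = 0.0681) and with a pseudocount of 1 (0.58, adjusted p = 0.0722), where the difference was not smaller.

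The largest difference among the 29 belonged to a gene that did not pass. AT1G74270 (RPL35aC), for L35a, a protein whose gene is mutated in some cases of an inherited human anaemia, had signals of 481, 652 and 667 in wild type and 749, 1329 and 1189.8 in the mutant. All mutant samples lay above all wild type samples, by log2 0.82 (SE 0.24, limma adjusted p = 0.0612). The fit without mutant replicate 1 gave log2 1.07 and an adjusted p = 0.0118. Its paralogue AT1G07070 (RPL35aA) had signals of 203, 205 and 331 in wild type and 195, 416 and 464 in the mutant, so the groups overlapped through mutant replicate 1 (log2 0.46, SE 0.33, limma adjusted p = 0.421).

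Several large-subunit proteins sit around the tunnel through which the new peptide leaves the ribosome, among them L17, L31 and L35. AT2G39390 (RPL35B) had signals of 590.4, 579 and 710.5 in wild type and 702, 1120.5 and 1016 in the mutant (log2 0.56, SE 0.19, limma adjusted p = 0.101). AT2G19740 (RPL31A) had signals of 432, 439 and 610.2 against 489.9, 872 and 950.4 (log2 0.59, SE 0.27, limma adjusted p = 0.192). In both genes mutant replicates 2 and 3 stood above every wild type sample while replicate 1 lay within the wild type range. The L17 genes AT1G27400 (RPL17A) and AT1G67430 (RPL17B) differed by log2 0.22 (SE 0.14) and 0.03 (SE 0.12), with overlapping groups. RPL17B turned to -0.02 without wild type replicate 1.

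The stalk of the large subunit recruits the factors that drive elongation, with P0 as its base and L12 beside it on the ribosomal RNA. AT2G37190 (RPL12A) had signals of 2735, 3123 and 3369.6 in wild type and 3748, 4413 and 4316 in the mutant. These groups did not overlap (log2 0.43, SE 0.14, limma adjusted p = 0.0756), and the gene passed under 7 of 17 other settings. AT2G40010 (RPP0A) was a dimmer transcript, at 213, 256 and 256 against 303, 282 and 300.4. It was the only measured member other than AT1G08360 in which mutant replicate 1 was the highest mutant sample, again without overlap between the genotypes (log2 0.28, SE 0.12, limma adjusted p = 0.192).

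AT2G19730 (RPL28A) and AT2G19740 (RPL31A) are neighbours on chromosome 2 in the RefSeq annotation and encode different proteins. RPL28A, for a protein that budding yeast lacks, had signals of 3959, 4028 and 4614 in wild type and 4701, 5808 and 6233 in the mutant (log2 0.40, SE 0.15, limma adjusted p = 0.12). AT2G34480 (RPL18aB) was similar, at 4549.5, 5125 and 5507 against 5557, 7082 and 7383 (log2 0.39, SE 0.15, limma adjusted p = 0.139). For both genes the groups did not overlap, with mutant replicate 1 just above the highest wild type sample.

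AT2G20450 (RPL14A), AT1G26880 (RPL34A), AT1G18540 (RPL6A), AT2G37600 (RPL36A) and AT1G77940 (RPL30B) differed by 0.23 to 0.34 on the log2 scale, with limma adjusted p from 0.235 to 0.377. AT1G52300 (RPL37B) and AT1G36240 (RPL30A) differed by 0.17 each. RPL30A was the dimmest member, with signals from 28.7 to 53.6 over the 6 samples, and its value leans on the added 16. AT2G01250 (RPL7B) and AT2G47610 (RPL7aA), both bright transcripts, differed by 0.09 and 0.05.

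L10a had no member that moved beyond its error. AT2G27530 encodes RPL10aB and is known as PIGGYBACK1, PGY1, a gene found through its part in setting the upper side of leaves. Its signals were 3071, 3207 and 3093 in wild type and 2848, 3558 and 3183 in the mutant (log2 0.03, SE 0.13, limma adjusted p = 0.922). AT1G08360 (RPL10aA) had signals of 2995, 2703 and 3200.2 against 2995, 2775 and 2867 (log2 -0.04, SE 0.12). Both ranges lay across each other, and the sign of RPL10aA turned under each of the 4 other scalings. A further L10a copy outside the list, AT5G22440, named after its value was seen, had the lowest difference of 82 other cytosolic ribosomal protein genes (log2 -0.43, limma adjusted p = 0.15).

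Of the 7 small-subunit genes 0 passed in either direction (limma, also 0 at an unadjusted p under 0.05), and 1 of the 22 large-subunit genes rose (4.55%). Of all probe sets 6.94% were called higher and 7.42% lower, so neither share was above the background. The 40S median was 0.19 and the 60S median 0.28, and 6 of 7 and 21 of 22 genes had differences above 0. The subunits were not tested against each other. Their medians stayed in that order under each of the other scalings, at 0.36 and 0.42 on the deposited signals and at 0.68 and 0.73 under spike scaling.

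Small-subunit values ranged from log2 -0.11 to 0.33. AT1G15930 (RPS12A) encodes a protein of the head of the subunit, and its signals of 3605, 3647 and 3964 in wild type lay below the mutant's 3971, 5311 and 4924 (log2 0.33, SE 0.14, limma adjusted p = 0.178). AT2G21580 encodes RPS25B, a protein needed in yeast and human cells for translation from some viral internal entry sites. It had signals of 482, 633 and 762 against 686, 765 and 876 (log2 0.32, SE 0.19). The RPS12A groups were apart by less than the spread among its mutant samples, and the RPS25B groups overlapped.

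AT1G48830 (RPS7A) had a difference of 0.31 (SE 0.16), and AT2G32060 (RPS12C), AT2G36160 (RPS14A) and AT2G17360 (RPS4A) had 0.19, 0.17 and 0.17, all with overlapping groups. RPS2, which AT2G41840 encodes as RPS2C, lines the entry of the messenger RNA channel. This gene had the lowest difference of all members, with signals of 5526, 4857 and 5639.8 in wild type and 4924, 4733 and 5148 in the mutant (log2 -0.11, SE 0.12, limma adjusted p = 0.605). Its sign turned to plus under the 4 other scalings, with values from 0.10 to 0.46. A further S2 copy outside the list, AT3G57490, named after its value was seen, went the other way. Its signals were 422, 366 and 461 in wild type and 677, 786 and 684 in the mutant (log2 0.76, SE 0.14, limma adjusted p = 0.0114). That call was lost on the deposited signals and without wild type replicate 2 (limma adjusted p = 0.279 and 0.051). Across the 29 genes the difference was weakly and inversely related to brightness (Spearman's rho = -0.36, Pearson's r = -0.33 against log2 mean signal, as a description of genes that share the same 6 arrays). The 15 brighter members had a median of 0.17 and the 14 dimmer ones of 0.30.

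Paralogues of 6 proteins could be compared through the change of their within-array signal ratio between genotypes. The SE of such a change, and of the control probe sets below, comes from the 3 samples of each genotype alone and not from the limma fit. For L7 the log2 ratio of AT1G80750 to AT2G01250 was -2.77, -2.67 and -2.67 in wild type and -2.30, -2.22 and -2.15 in the mutant. The mutant ratios all lay above the wild type ratios, a change of 0.48 (SE 0.06, two-sided exact permutation p = 0.1, which is the smallest possible with 3 samples a group, and 0.3 adjusted over the 6 pairs). The change was 0.30 to 0.31 when arrays were scaled without quantile normalization, and 0.43 to 0.53 when any single sample was left out.

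For S12 the log2 ratio of RPS12A to RPS12C was 1.502, 1.52 and 1.39 in wild type and 1.63, 1.62 and 1.59 in the mutant. These groups did not overlap either, although the change was small at 0.14 (SE 0.04, exact permutation p = 0.1 with n = 3 per group, two-sided, 0.3 adjusted over the 6 pairs). Ratios of the other 4 pairs overlapped between genotypes. They changed by 0.18 for RPL17A over RPL17B, -0.06 for RPL30A over RPL30B, -0.07 for RPL10aA over RPL10aB and -0.36 for RPL35aA over RPL35aC, with SE from 0.13 to 0.24 (exact permutation p from 0.2 to 0.7 with n = 3 per group). With 3 samples against 3, this permutation test could not give a p under 0.1 for any pair.

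**Figure D2:**
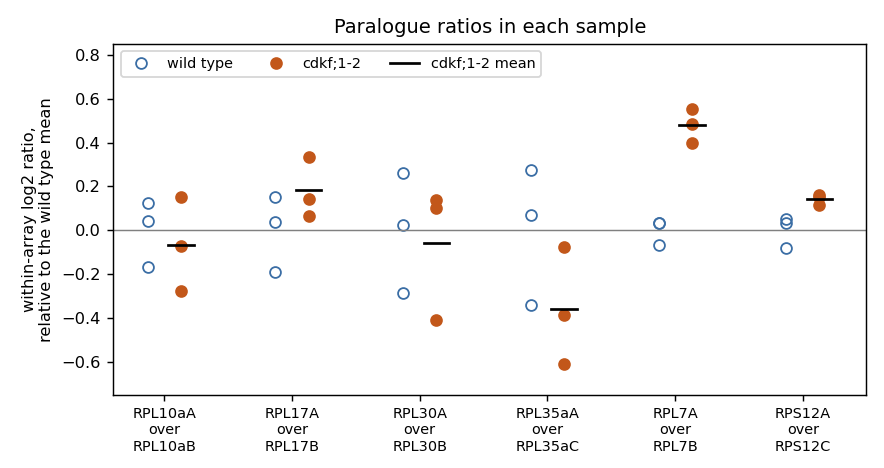
The y axis is the log2 ratio of 2 paralogues within an array, relative to the wild type mean of that ratio, for 6 pairs of ribosomal protein genes. Open circles are wild type samples, filled circles cdkf;1-2 samples and bars the mutant mean, and the genotypes are apart for RPL7A over RPL7B (change 0.48) and RPS12A over RPS12C (change 0.14).

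The members moved together from sample to sample, also within a genotype. The median of the 29 genes, each relative to its own wild type mean, was -0.08, -0.06 and 0.14 for the wild type replicates in order, against 0.03, 0.36 and 0.36 in the mutant replicates. Mutant replicate 1 therefore lay within the wild type range and the other mutant samples above it. It was the lowest mutant sample for 24 of the 29 genes (82.8%), against 37.2% of all probe sets. Wild type replicate 3 was the highest wild type sample for 24 of the 29 genes, against 36.2% of all probe sets.

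Without mutant replicate 1, limma called 8 of the 29 genes higher (27.6%, against 9.13% of all probe sets) and 0 lower (against 8.93%), and the median was 0.35. The 8 were RPL7A, RPL35aC, RPL35B, RPL31A, RPL14A, RPL28A, RPL18aB and RPL12A, and the sample left out was chosen after its values were seen. All 8 are of the large subunit, as are 22 of the 29 measured genes. Outside the list, genes of both subunits passed without this replicate. Examples are AT3G53740 for L36 and AT3G04230 for S16 (limma adjusted p = 0.00432 and 0.00878). Leaving out wild type replicate 1 or 2 left 0 calls (background 4.15% and 3.56%), and so did leaving out mutant replicate 2 or 3 (4.1% and 4.07%). Leaving out wild type replicate 3 left 1 (4.55%).

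**Figure D3:**
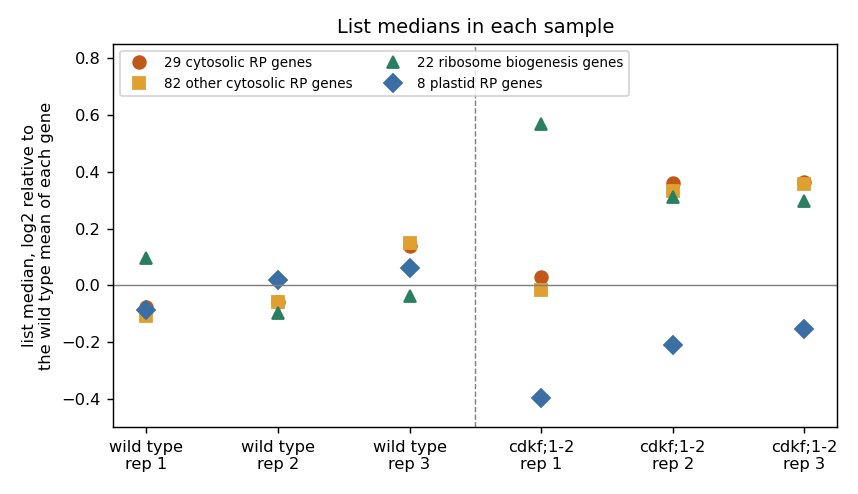
Points give the median over the genes of a list in each of the 6 samples, as log2(normalized signal + 16) relative to the wild type mean of each gene. In cdkf;1-2 replicate 1 the cytosolic ribosomal protein (RP) genes lie at 0.03 and the ribosome biogenesis genes at 0.57, while in replicates 2 and 3 both lie between 0.30 and 0.36.

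The array carries 1 control probe set for 25S ribosomal RNA, the backbone of the 60S subunit. Its deposited signal, divided by the median of all probe sets on its array, was 44.8, 53.5 and 47.8 in wild type and 108, 105 and 85.5 in the mutant. The genotypes did not overlap, with a log2 difference of 1.03 (SE 0.13, two-sided exact permutation p = 0.1). Labelled RNA here was made from total RNA, and how much of this signal reports the abundance of the RNA was not tested. The bacterial poly(A) control transcripts, which are added to a sample, were 1.74-fold higher on the same basis and also without overlap. The control for 5S ribosomal RNA, another RNA of the 60S subunit, was 0.790, 0.938 and 0.810 in wild type and 0.594, 1.25 and 1.05 in the mutant. Those groups overlapped (log2 0.13, SE 0.33, exact permutation p = 0.8).

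Ratios of 3' to 5' probe sets of control genes, which depend on RNA quality and labelling, also separated the genotypes that differed in ribosomal protein and 25S signals. The actin ratio was 2.05 to 2.48 in wild type and 2.64 to 2.91 in the mutant, and the GAPDH ratio 0.887 to 0.960 and 1.00 to 1.07. The ubiquitin ratio went the other way, from 1.60 to 1.74 in wild type and from 1.38 to 1.52 in the mutant. Each had an exact permutation p = 0.1, and their part in the ribosomal protein and 25S values was not tested.

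The 25S probe set differed more between the genotypes than any of the 29 genes did. The ratio of each gene to the 25S probe set within an array was lower on average in the mutant for 29 of 29 genes, as it was for 92.2% of all probe sets. The median change of that ratio was -0.53 for the 29 genes and -0.98 for all probe sets. The genotypes did not overlap for 10 of the 29 ratios, against 66.7% of all probe sets. RPL35aC was nearest to keeping its ratio (log2 change -0.01) and RPS2C farthest from it (-0.78).

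The ratio to 25S varied more between mutant samples than between wild type samples. Its median over the 29 genes, relative to wild type, was -0.04, -0.18 and 0.22 for the wild type replicates in order, and -1.03, -0.36 and -0.01 for the mutant replicates. Mutant replicate 3 lay within the wild type range and replicate 1 far below it. No correlation is given, since the samples fall into 2 genotypes of 3.

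**Figure D4:**
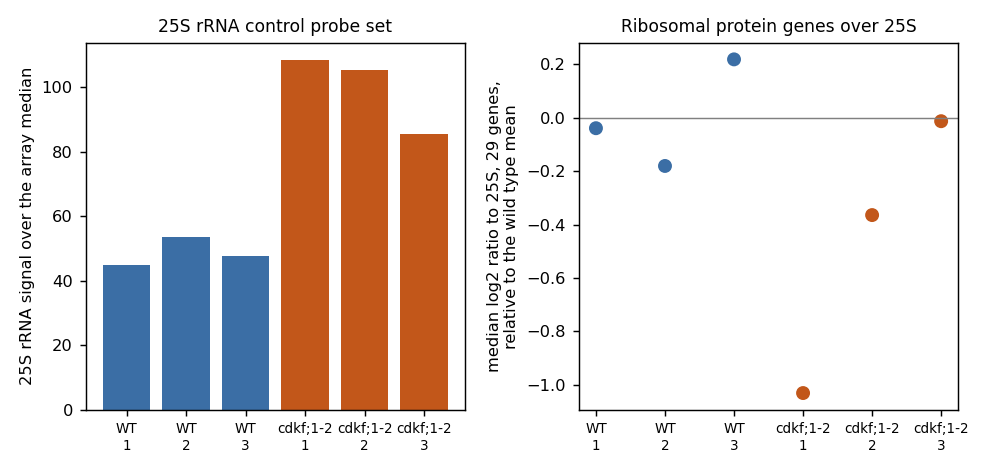
Left, bars give the deposited 25S rRNA signal of each sample divided by the median of all probe sets on its array, from 44.8 to 53.5 in wild type (WT, blue) and from 85.5 to 108 in cdkf;1-2 (orange). Right, points give the median over 29 ribosomal protein genes of the log2 ratio to 25S, relative to wild type, with cdkf;1-2 replicate 1 lowest at -1.03.

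Cytosolic ribosomal protein genes outside the list had a median close to that of the members. Of 134 further loci 82 had a probe set of their own, and the difference was above 0 for 75 of them, with a median of 0.21. Limma called 7 higher (8.54%, against 6.94% of all probe sets) and 0 lower. AT3G53740, for L36, had the largest rise, with wild type signals of 1163, 1299 and 1386 and mutant signals of 2044, 2689 and 2961 (log2 0.98, SE 0.17, limma adjusted p = 0.00966). It passed whichever single sample was left out.

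The next rises were those of AT3G44590, for an acidic stalk protein (log2 0.94, SE 0.18), AT3G04230, for S16 (log2 0.93, SE 0.22), and AT5G59240, for S8 (log2 0.82, SE 0.21). All 4 were lost on the deposited signals. The call of AT3G44590 was lost without wild type replicate 1 or 2 or mutant replicate 2 or 3 (adjusted p up to 0.0613). The calls of AT3G04230 and AT5G59240 were lost without any sample other than mutant replicate 1 (adjusted p up to 0.107 and 0.123). Both were also lost under spike scaling (limma adjusted p = 0.0685 and 0.0574) and with a pseudocount of 1 (0.072 and 0.0781). That of AT3G04230 was lost after median centring too (limma adjusted p = 0.0505). AT5G59240 was dim, at 38.9 to 60.4 in wild type. Its difference was 1.00 with a pseudocount of 1 and 0.53 with 64. Mutant replicate 1 was the lowest mutant sample for 76 of the 82 genes (92.7%, against 37.2% of all probe sets). Without it 14 were called higher (17.1%, against 9.13% of all probe sets). For this list too, single-sample leave-outs of wild type replicate 1, 2 or 3 or mutant replicate 2 or 3 left 1 to 3 calls, where 3.56% to 4.55% of all probe sets were called higher.

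Factors that build ribosomes in the nucleolus had higher signals in the mutant for 21 of 22 measured genes. Of 52 listed genes 22 were measured, and 4 rose (18.2%, against 6.94% of all probe sets) and 0 fell (against 7.42%). At an unadjusted p under 0.05, 13 were higher (59.1%, against 14%) and 0 lower (against 15.6%). The median was 0.42, and the groups did not overlap in the upward direction for 14 of the 22 (63.6%, against 15.8% of all probe sets). AT3G03920 encodes GAR1, a subunit of the particles that convert uridine to pseudouridine in ribosomal RNA. It rose from 701, 716 and 874 to 1293, 1633 and 1560.0 (log2 0.95, SE 0.15, limma adjusted p = 0.00708), and passed whichever single sample was left out.

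AT3G12860, for a NOP56-type protein of the particles that methylate ribosomal RNA, rose by log2 0.81 (SE 0.20). AT5G15550, for WDR12 of the complex that matures large-subunit RNA, rose by 0.69 (SE 0.16), and AT2G37990, for RRS1, which helps to place 5S RNA in the large subunit in yeast, rose by 0.64 (SE 0.14). These 3 calls were lost without wild type replicate 2 (adjusted p = 0.0753, 0.0976 and 0.0843) and without mutant replicate 2 or 3, that of AT3G12860 also without wild type replicate 1 or mutant replicate 1, that of AT5G15550 without wild type replicate 3 and that of AT2G37990 without wild type replicate 1. All 4 biogenesis calls were lost on the deposited signals. With a pseudocount of 1 those of AT3G12860, AT5G15550 and AT2G37990 were lost too (limma adjusted p = 0.0739, 0.0642 and 0.0509). That of AT3G12860 was also lost after trimmed mean scaling (limma adjusted p = 0.0731). Single leave-outs of wild type replicate 1 or 2 or mutant replicate 2 or 3 left 1 or 2 calls in this list, where 3.56% to 4.15% of all probe sets were called higher.

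The biogenesis genes differed from the ribosomal protein genes in how replicate 1 of both genotypes behaved. Mutant replicate 1 was the highest mutant sample for 16 of the 22 biogenesis genes (72.7%, against 42.8% of all probe sets). It was the lowest for 24 of the 29 ribosomal protein genes (82.8%, against 37.2%). The biogenesis median was 0.57 in mutant replicate 1 and 0.31 and 0.30 in replicates 2 and 3. In wild type replicates 1 to 3 it was 0.10, -0.10 and -0.04, where the ribosomal protein median was -0.08, -0.06 and 0.14. Wild type replicate 1 was the lowest wild type sample for 2 of the 22 and 17 of the 29 genes, against 8029 of all 22746 probe sets. This difference between the lists was seen in the values and was not tested.

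Ribosomal proteins of the plastid, encoded in the nucleus, lay on the other side of 0. All 8 measured of 35 listed genes had differences below 0 after quantile normalization, with a median of -0.25, although 0 passed in limma (unadjusted p under 0.05 for 2 of the 8, both lower, against 15.6% of all probe sets). The genotypes did not overlap for 5 of the 8 (62.5%, against 18.1% of all probe sets). AT3G13120, for S10, had the lowest, with wild type signals of 3226, 3459.9 and 4150.4 and mutant signals of 2727, 2369.5 and 2882 (log2 -0.44, SE 0.15, limma adjusted p = 0.0933). The sign of this median depended on scaling: it was -0.04, 0.07, -0.07 and 0.28 on the deposited signals, after median centring, after trimmed mean scaling and under spike scaling. The distance between the cytosolic and the plastid medians changed less, from 0.52 after quantile normalization to 0.43 under each of those 4 scalings.

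**Figure D5:**
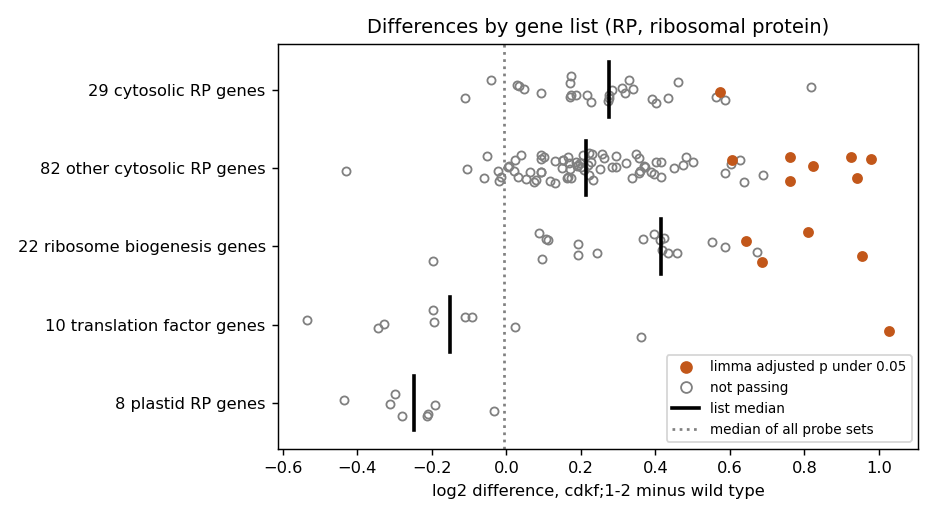
Each point is a gene, placed on the x axis by its log2 difference, cdkf;1-2 minus wild type, with filled points for limma adjusted p under 0.05, bars for list medians and the dotted line for the median of all probe sets. Medians run from 0.42 for ribosome biogenesis through 0.28 and 0.21 for the cytosolic ribosomal protein (RP) lists to -0.25 for plastid ribosomal proteins.

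Translation factors had a median below 0. Of 53 listed genes 10 were measured, with a median of -0.15, and 1 rose and 0 fell. At an unadjusted p under 0.05, limma gave 2 higher and 2 lower. Over all probe sets 6.94% were called higher, and 14% and 15.6% were higher and lower at the unadjusted threshold. The gene that rose, AT4G27130, encodes an initiation factor of the eIF1 type, which helps the 40S subunit to find the start codon. Its signals went from 623, 568 and 654 to 1006, 1376 and 1474 (log2 1.03, SE 0.17, limma adjusted p = 0.00831). It passed whichever single sample was left out and was lost on the deposited signals (adjusted p = 0.254).

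Of 7 TOR pathway genes 2 were measured and 1 fell, where 7.42% of all probe sets were called lower. RAPTOR2, AT5G01770, for a partner protein of the TOR kinase, fell (log2 -0.81, SE 0.21, limma adjusted p = 0.0398). Its signals, at most 49.9 in wild type and 27.9 in the mutant, were dim enough for the added 16 to shape that value. The call was lost without wild type replicate 1, 2 or 3 or mutant replicate 2 (adjusted p up to 0.116), on the deposited signals, under spike scaling and with a pseudocount of 1. The related AT3G08850 differed by -0.04.

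Tissue markers were thinly covered. Of 19 markers of dividing cells 3 were measured and 0 passed in limma (unadjusted p under 0.05 for 1 in each direction), with a summed signal of 557 to 693 in wild type and 529.6 to 612 in the mutant. Of 9 markers of green tissue 3 were measured and 1 fell, with summed signals of 26311 to 26535 and 22035 to 22499.5 after quantile normalization. Of 8 root markers 2 were measured and 1 fell, with sums of 210.3 to 225 and 56.2 to 126. Both are expansin genes, EXPA7 and EXPA18, and their sum does not stand for root tissue as a whole. The only measured meristem marker, CLV3 (1 of 6), lay at 7.12 to 24.9 and 2.38 to 13.1, near the bottom of the signal range. Over all probe sets 7.42% were called lower, and 14% and 15.6% were higher and lower at the unadjusted threshold. With so few genes a list, these counts do not measure the amount of a tissue.

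The seed reserve list had 1 measured gene of 7, ICL, which rose from 59.9 to 103 up to 792 to 1320.5, where 6.94% of all probe sets were called higher. The green tissue call, PSAN (log2 -0.59), was lost under the 4 other scalings and without wild type replicate 2 or 3 or mutant replicate 3 (adjusted p up to 0.081 among these samples). The PSAN difference was -0.37 on the deposited signals and -0.40 after trimmed mean scaling. It was -0.26 after median centring and -0.05 under spike scaling. The root call, EXPA18 (log2 -0.73), was lost on the deposited signals, under spike scaling, with a pseudocount of 1 and without wild type replicate 1, 2 or 3 or mutant replicate 3 (adjusted p up to 0.0996). In ICL, as in the ribosome biogenesis list, mutant replicate 1 was the highest mutant sample. The part of tissue make-up in the ribosomal protein values was not tested.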

How the data were processed

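Biotin-labelled RNA from 6 seedling samples was hybridised to 1-colour arrays. The authors deposited linear intensities, 1 for each probe set in each sample. Per the submitters' processing notes the software was GCOS, and no version, setting or array scaling is given in the labels or file headers. All 22810 probe sets were quantile-normalized, 16 was added and log2 taken. After removal of 64 controls, limma 3.58.1 (R 4.3.3) was fitted by lmFit and eBayes to 22746 probe sets with a genotype term (4 residual df, two-sided).

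Genes were named through the array annotation and the RefSeq table of TAIR10.1. Of the annotated probe sets 13513 had 1 gene and 503 several. Ratios and the 25S control were compared by exact permutation over samples. Each setting was changed on its own: 4 scalings, filters on dim probe sets, the prior, the pseudocount, array weights, a block for the replicate number, and single samples left out. The inclusion of shared probe sets was chosen after seeing the data. Scripts were tested on simulated data, where limma recovered 5 of 67 probe sets changed 1.5-fold, 42 of 67 changed 2-fold and 63 of 66 changed 4-fold. The changed probe sets were drawn from those above the median signal. In the simulation 112 probe sets were called, against 3267 in the quantile-normalized fit of the real data. The adjustment is stricter where fewer are called, so these recovered shares do not give the power for the members. The members' median difference, 1.21-fold, is below the smallest of these changes.

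The members and lists were chosen with earlier results of these data known. By rule, values in every sample were given for members past the threshold, the 4 largest differences that did not pass, paralogue pairs whose ratios did not overlap, and members divergent in sequence or known from developmental mutants, of which AT2G19720, AT1G22780, AT1G72370, AT1G14320, AT1G43170 and AT2G37270 were not measured. Up to 4 called genes were named per other list, largest change first, and AT3G57490 was named besides these. Other members given in full were chosen after their values were seen. The number of arrays limits the precision. Nothing beyond the word biological says how replicates were raised. The limma p-values set a difference against the spread between these samples, moderated over all probe sets. That spread may be technical. Same-numbered samples of the 2 genotypes deviated together at r = 0.30, 0.01 and 0.15, and different-numbered ones at r from -0.24 to 0.15. These values do not settle whether the numbers pair the samples. The fit used no pairing, and a fit with the replicate number as a block is given beside it.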

Additional observations from a re-analysis of the deposited data

How the results depend on the processing

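No member was called lower by limma under any of the 17 other settings, and 480 of 491 member values kept their sign. The count of members called higher, 1 in the quantile-normalized fit, was 0 on the deposited signals, under spike scaling and with a pseudocount of 1, 2 after trimmed mean scaling, with a pseudocount of 64 and with the replicate number as a block, 3 with a trended and robust prior, 4 without the 40% or 60% dimmest probe sets (against 12.5% and 13.1% of the probe sets kept), and 11 with array weights (against 11.8%). With the replicate block all other list counts stayed within 1.5 times. Leaving out single samples gave 0 to 8. With the 11 shared probe sets, of which 0 passed, it stayed at 1. Other cytosolic ribosomal protein genes gave 0 on the deposited signals, 3 with a pseudocount of 1, 26 with array weights and 1 to 14 without single samples, against 7. Ribosome biogenesis gave 0 on the deposited signals, 7 after median centring, 9 under spike scaling and without the 40% dimmest, 8 without the 60% dimmest and with a pseudocount of 64, 1 with a pseudocount of 1, 10 with array weights and 1 to 6 without single samples, against 4. The share of all probe sets called higher moved with the setting too, from 6.94% in the quantile-normalized fit. It was 0.659% on the deposited signals, 7.82% after median centring and 7.63% under spike scaling. Without the 40% and 60% dimmest it was 12.5% and 13.1%, and with array weights 11.8%. A pseudocount of 1 or 64 gave 4.73% and 7.58%, and leaving out single samples 3.56% to 9.13%. Plastid ribosomal proteins had 1 call lower, against 0, without the 60% dimmest and with a pseudocount of 64. In those fits 14.8% and 8.81% of probe sets were called lower. Over all probe sets, spike scaling called 1735 higher and 425 lower, against 1579 and 1688. Array weights called 5612 in all, against 3267.

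The median of the members was 0.50 after median centring and 0.71 under spike scaling, and 0.20 to 0.35 without single samples. The 40S median was 0.36 on the deposited signals, 0.47 after median centring and 0.68 under spike scaling (0.10 to 0.32 without single samples), and the 60S median 0.52 after median centring and 0.73 under spike scaling (0.22 to 0.37). For other cytosolic genes it was 0.50 and 0.71 under these 2 scalings (0.14 to 0.35 without single samples), and for biogenesis 0.65 under spike scaling (0.31 to 0.51). The plastid median was -0.044, 0.070, -0.075 and 0.28 on the deposited signals, after median centring, trimmed mean scaling and spike scaling (-0.31 to -0.19 without single samples). Differences that changed sign were those of AT1G08360 (0.15, 0.26, 0.12 and 0.48 under these 4 scalings, -0.11 to 0.016 without single samples, the highest without wild type replicate 3), AT2G41840 (0.14, 0.25, 0.10 and 0.46), AT1G67430 (-0.016 without wild type replicate 1) and AT2G27530 (-0.053 to 0.11 without single samples, the lowest without mutant replicate 2). None of the 4 passed in any setting.

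The L7 ratio change was 0.31, 0.30, 0.30 and 0.30 under the same scalings and the S12 change 0.24 in each, while that of RPL30A over RPL30B, with its dim member, was -0.37 after median centring and -0.44 under spike scaling. The 25S difference was 1.24 under spike scaling and 0.97 to 1.14 without single samples. The cause of these dependences was not tested. Each measured member had 1 probe set, so averaging the probe sets of a gene changed none of the member values.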
